A study of Mus musculus with 2 samples.

Results

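YAP1 and TAZ are paired transcriptional co-activators that bind the TEAD factors, and 10 genes of their pathway were followed here in single cells of the mouse anterior eye segment: Yap1, Wwtr1 (which encodes TAZ), Tead1, the target genes Ccn1, Ccn2, Ankrd1 and Amotl2, and the regulators Amot, Lats2 and Ajuba. They were chosen by symbol with earlier results of these data known, and all 10 were present among the 32285 genes of the single-cell matrices. The study asked how loss of the transcription factor Foxc2 from the neural crest affects the tissues that drain aqueous humor from the eye. It made 1 droplet single-cell library per condition from dissociated anterior segments with the iris removed, each pooled from 4 to 6 mice of 3 to 4 weeks of age. Control mice carried floxed Foxc2 alleles (Foxc2fl/fl), and NC-Foxc2-/- mice carried the same alleles together with Wnt1Cre, in which Wnt1 regulatory sequence drives Cre in the neural crest lineage. The control label names no Cre, so loss of Foxc2 and presence of Cre cannot be told apart, and the NC-Foxc2-/- mice were selected for a moderate eye phenotype. With 1 library per condition there was no replicate and no test between conditions.

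In the Hippo pathway a kinase cascade ending in LATS1 and LATS2 phosphorylates YAP1 and TAZ, which are then held in the cytoplasm or degraded. When the cascade is inactive, as in spread or stretched cells on a stiff matrix, YAP1 and TAZ enter the nucleus and switch on TEAD targets such as Ccn1, Ccn2, Ankrd1 and Amotl2. In the trabecular meshwork, the contractile filter through which aqueous humor leaves the eye, this pathway is known as a sensor of stretch and matrix stiffness.

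The target genes among the members were mostly higher in the NC-Foxc2-/- library, and the co-activator Wwtr1 was not. Levels were UMIs summed over all cells of a class and library and scaled to 1000000 UMIs of that class and library (CPM), and a ratio is the CPM of NC-Foxc2-/- over that of control, with a 95% interval for counting error only. Of 108 pairs of a member and a class with at least 50 UMIs, 90 (83.3%) had a ratio above 1, beside 48.8% of 113904 such pairs over all genes. By a rule of size, 10 of the 108 pairs were higher, with a ratio of at least 2, and 0 were lower, with a ratio of 0.5 or less, where 2.76% of all pairs were higher and 2.97% lower. Ccn1, Yap1 and Lats2 had ratios above 1 in every class in which they reached 50 UMIs, as had 385 (9.14%) of the 4213 genes, 7 members among them, that reached 50 UMIs in at least 13 classes. The classes of a condition come from 1 library and share its pool of mice and its free RNA, so agreement among them is not replication. Since the members were chosen with earlier results of these data known, their shares beside those of all genes are descriptions. The study lists Xist as higher and the Y-linked gene Ddx3y as lower in NC-Foxc2-/- TM-1. The part of the sex of the pooled mice in these ratios was not tested.

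The genes lie on 7 chromosomes of the mm10 build and are given by their GENCODE vM21 spans. Ccn1 (chr3:145646976-145649981, minus strand) and Ccn2 (chr10:24595442-24598683, plus strand) are short genes for secreted matricellular proteins that bind integrins. Ankrd1 (chr19:36111961-36120099, minus strand) encodes an ankyrin repeat protein of stretched muscle. Amotl2 (chr9:102716672-102733418, plus strand) and Amot (chrX:145446425-145505181, minus strand) encode angiomotins, junction scaffolds that bind YAP1 and TAZ. Yap1 (chr9:7931999-8004596), Wwtr1 (chr3:57455649-57575910), Lats2 (chr14:57689662-57758388) and Ajuba (chr14:54567472-54577558), which encodes a LIM-domain protein that restrains the LATS kinases, are all on the minus strand, and Tead1 (chr7:112679318-112906807) is on the plus strand. Other annotated genes overlap the spans of Ccn2, Yap1, Wwtr1, Tead1 and Lats2, and the sources used here do not say how reads in those overlaps were assigned.

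The 250 bases before the RefSeq start site (GRCm38.p6) are shown for the 3 target genes that passed the rule of size and have a promoter in the table, because these sequences show the letters GGAATG, the core that TEAD factors recognise. Capitals mark each match, which reads CATTCC where it lies on the other strand. The windows are chr3:145649986-145650235 (minus strand) for Ccn1, chr19:36119845-36120094 (minus strand) for Ankrd1 and chr9:102717554-102717803 (plus strand) for Amotl2.
Ccn1: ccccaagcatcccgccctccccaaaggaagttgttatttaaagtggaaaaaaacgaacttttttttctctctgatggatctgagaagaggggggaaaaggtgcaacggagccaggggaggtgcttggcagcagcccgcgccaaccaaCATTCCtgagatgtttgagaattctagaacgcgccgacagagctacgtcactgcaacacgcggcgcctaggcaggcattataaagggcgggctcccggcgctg
Ankrd1: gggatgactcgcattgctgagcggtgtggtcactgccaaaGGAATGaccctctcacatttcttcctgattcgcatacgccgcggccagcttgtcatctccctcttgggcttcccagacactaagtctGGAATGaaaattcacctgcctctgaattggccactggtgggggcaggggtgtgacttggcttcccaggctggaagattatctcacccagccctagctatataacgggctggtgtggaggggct
Amotl2: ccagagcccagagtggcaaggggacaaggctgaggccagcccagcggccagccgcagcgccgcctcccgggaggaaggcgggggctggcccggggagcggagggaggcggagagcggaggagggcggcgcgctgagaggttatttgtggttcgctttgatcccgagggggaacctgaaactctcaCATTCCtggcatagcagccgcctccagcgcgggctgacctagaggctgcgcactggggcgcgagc

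The match began 103 bases before the start of Ccn1 and 65 bases before that of Amotl2, and Ankrd1 held matches at 210 and 123 bases. Promoters of 8 of the 10 members were in the table, and Ccn2 and Tead1 were not in it. Of the 8, 6 held at least 1 match on either strand (Ccn1, Ankrd1, Amotl2, Yap1, Wwtr1 and Ajuba) and Amot and Lats2 held none, where 12.6% of 32841 mouse promoters of the same length held at least 1. Ankrd1 and Ajuba held 2, as did 1.02% of all promoters. Neither the AP-1 letters TGANTCA nor the CArG box bound by SRF was found in any of the 8, where 6.75% and 1.47% of all promoters held them. A match of letters is a description of the sequence and not a binding site.

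The control library held 10773 cells after filtering, with a median of 7663 UMIs, and the NC-Foxc2-/- library 10872 cells with a median of 6517. The trabecular meshwork clusters TM-1, TM-2 and TM-3, the uveal meshwork, fibroblasts and endothelial subclusters are those of the study, and the other classes, called by their markers with the ending "-like", were rebuilt. Of the classes, 15 held at least 50 cells in each library, and 14 of these had a member at 50 UMIs. Schlemm's canal (SC) and lymphatic endothelial cells (84 control and 23 NC-Foxc2-/- cells), corneal endothelial-like cells (168 and 9) and conjunctival epithelial-like cells (447 and 25) are given as values only. In SC and lymphatic endothelial cells Ccn1 was at 223 CPM in control (188 UMIs) and 194 in NC-Foxc2-/- (36 UMIs). Ccn2 was there at 70.1 and 37.7 CPM (59 and 7 UMIs) and Amotl2 at 11.9 and 21.5 CPM (10 and 4 UMIs). Foxc2 itself was at 39.4 CPM in TM-1 of control mice and 8.76 in those of NC-Foxc2-/- mice, at 132 and 2.48 in pericyte-like cells and at 46.7 and 0.670 in fibroblasts. In keratocyte-like cells it went against the label, with 4.22 CPM (114 UMIs) in the control library and 9.94 (382 UMIs) in the other, so every keratocyte-like value below compares libraries whose labels Foxc2 did not bear out in those cells. The libraries shared 52 cell barcodes.

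**Figure D1:**
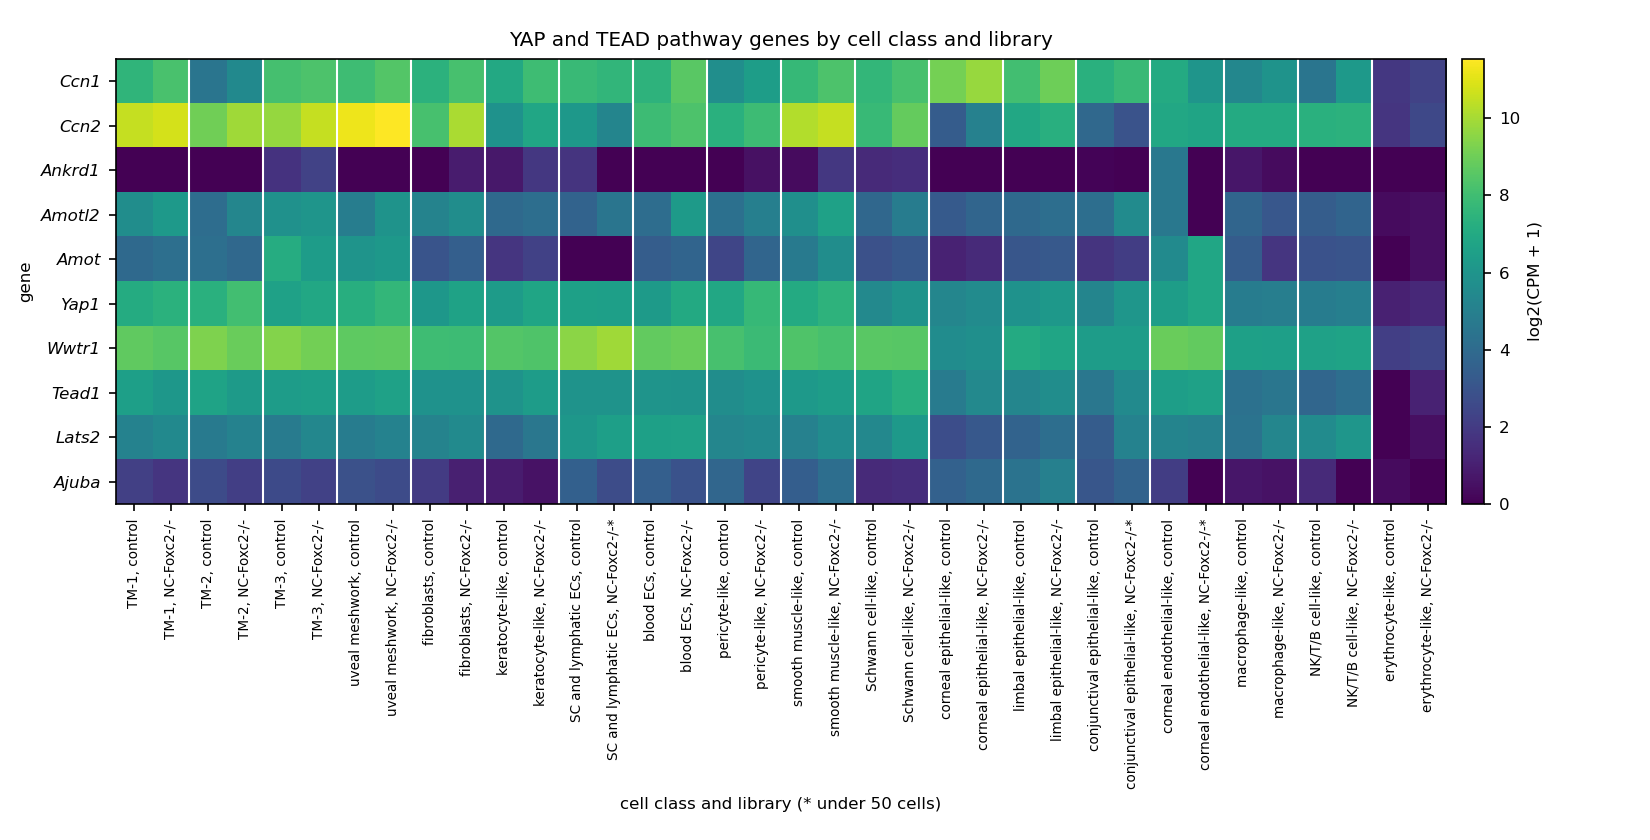
Level of each of the 10 genes, as log2 of CPM plus 1 (color), by cell class and library, with an asterisk where a class has under 50 cells. Ccn2 was most intense in uveal meshwork (2403 CPM in control, 2978 in NC-Foxc2-/-), while Ankrd1 was near 0 in most classes.

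The co-activators moved apart between the libraries. Yap1 was at 159 CPM in control and 267 in NC-Foxc2-/- TM-2, its highest class, with a ratio of 1.68 (1.38 to 2.05). In pericyte-like cells it was at 119 and 208 CPM, a ratio of 1.76 (1.49 to 2.09). Over 13 classes its ratio ran from 1.08 in macrophage-like cells to 1.76, with a median of 1.33, and the interval lay above 1 in 12 of them. TM-1 had 135 and 163 CPM of Yap1, and TM-3 had 95.9 and 120.1. Uveal meshwork had 150.5 and 200.1 CPM, and fibroblasts had 67.4 and 98.1. No ratio of Yap1 reached 2.

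Wwtr1, which encodes TAZ, was lower or level in the same classes. In TM-3 it was at 671 CPM in control and 546 in NC-Foxc2-/-, a ratio of 0.813 (0.779 to 0.849). TM-2 had 630.0 and 479.5 CPM, a ratio of 0.761 (0.677 to 0.855), the lowest of 14 classes. The highest was 1.11 (0.989 to 1.24), in blood endothelial cells (436 and 482 CPM). Without the blood endothelial subcluster BEC-2 (12 control and 59 NC-Foxc2-/- cells) that ratio was 1.21 (1.07 to 1.36). Over the 14 whole classes the ratio was below 1 in 10, with an interval below 1 in 7 of them and above 1 in none. Across classes the level was highest in SC and lymphatic endothelial cells, with 731 CPM in the 84 control cells and 947 CPM in the 23 NC-Foxc2-/- cells. TM-3 came next over both libraries (603 CPM), then TM-2 (548), then corneal endothelial-like cells (476) and blood endothelial cells, and only these last neighbors had overlapping intervals.

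TAZ transcripts accordingly made up a smaller share of the summed UMIs of Wwtr1 and Yap1 in every class with 50 cells in each library and 50 UMIs of both genes. The share compares the libraries within a class, since UMI counts were not scaled to gene length. In TM-2 Wwtr1 was 79.8% (76.8 to 82.6) of the pair in control and 64.2% (60.9 to 67.4) in NC-Foxc2-/- cells. In TM-3 it was 87.5% (86.5 to 88.4) and 82.0% (80.9 to 83.0). Pericyte-like cells had 70.9% and 52.8%, the widest gap. In that class the 9 pericyte markers, 4 of them lower, summed to 9392 and 6669 CPM, the 9 smooth muscle markers, 4 of them higher, to 9968 and 14297, and the erythrocyte markers to 21419.7 and 6085, and their part in the result was not tested. The intervals of the libraries overlapped in Schwann cell-like (90.1% and 86.1%), corneal epithelial-like (55.7% and 53.1%) and macrophage-like cells (77.4% and 75.5%). SC and lymphatic endothelial cells had 88.7% in control and 91.2% in the 23 NC-Foxc2-/- cells.

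**Figure D2:**
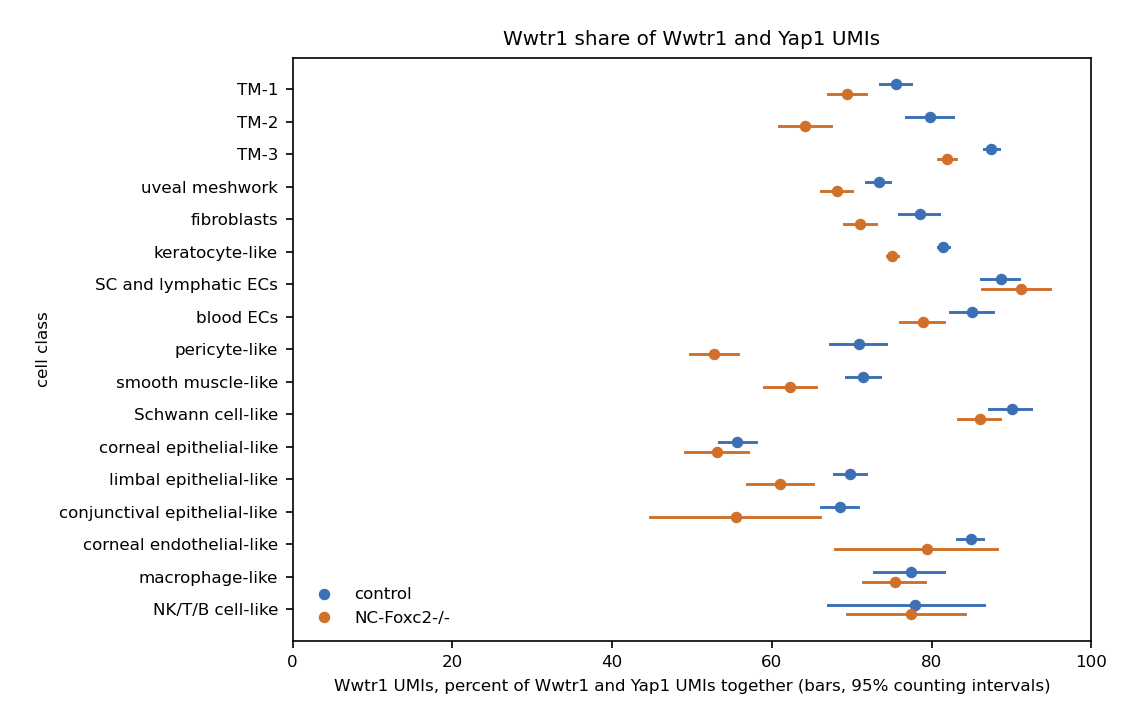
Share of Wwtr1 UMIs among the UMIs of Wwtr1 and Yap1 together (percent) by cell class, for the control and NC-Foxc2-/- libraries, with exact binomial 95% intervals for counting error. In TM-2 the share was 79.8% in control and 64.2% in NC-Foxc2-/-.

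Tead1, the DNA-binding partner, had no single direction. It was highest in Schwann cell-like cells, with 105 CPM in control and 150.4 in NC-Foxc2-/- cells, a ratio of 1.43 (1.15 to 1.79). It was lower in TM-1 (91.0 and 68.4 CPM, ratio 0.751, 0.626 to 0.899), and TM-2 had 103 and 77.3 CPM with an interval that held 1. In TM-3 (81.3 and 88.7 CPM) and fibroblasts (58.1 and 58.3 CPM) the intervals also held 1. Keratocyte-like cells (59.8 and 81.9 CPM, ratio 1.37) and corneal epithelial-like cells (27.2 and 42.0 CPM, ratio 1.54) were on the other side, and in all 5 of 13 classes had an interval above 1.

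Ccn2, also called CTGF, was the member with the most UMIs over both libraries in each meshwork class. In control TM-2 alone Wwtr1 had more (610 UMIs, beside 502 of Ccn2). Ccn2 differed most between the libraries in fibroblasts. Fibroblasts had 292 CPM in control and 1070.2 in NC-Foxc2-/- cells, a ratio of 3.67 (3.43 to 3.93). It was the only 1 of the 8 measured members past the rule of size there, where 4.84% of all genes were higher. The single cell with the most Ccn2 carried 171 UMIs, and without it the ratio was 3.58 (3.34 to 3.83). After each cell was thinned to 1000 UMIs, 17.6% of control and 29.4% of NC-Foxc2-/- fibroblasts had a Ccn2 UMI (40.2% and 52.6% unthinned).

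Within the outflow tissues Ccn2 was graded, from uveal meshwork (2403 and 2978 CPM) through TM-1 (1482 and 1778 CPM) and TM-3 (829 and 1476 CPM) to TM-2 (518 and 938 CPM). Over both libraries uveal meshwork, TM-1, smooth muscle-like cells, TM-3 and fibroblasts came in this order, with overlapping intervals only between fibroblasts and the next class, TM-2. The ratio was 1.81 (1.63 to 2.01) for TM-2 and 1.78 (1.72 to 1.84) for TM-3, and lower in the classes with most Ccn2, at 1.24 (1.21 to 1.27) for uveal meshwork and between 1.15 and 1.25 by its interval for TM-1. None of these passed the rule of size. Of the measured members, 0 of 9 were higher by it in TM-3, where 3.64% of all genes were, and 0 of 8 in TM-1, where 2.24% were.

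Ccn2 also passed the rule in Schwann cell-like cells, with 221 CPM in control and 445 in NC-Foxc2-/- cells, a ratio of 2.01 (1.75 to 2.32). Amotl2 passed there as well, so that 2 members were higher, where 2.2% of all genes were. Without the cell with the most Ccn2 the ratio was 1.91 (1.66 to 2.21). In corneal epithelial-like cells, the only member past the rule among the measured ones was Ccn2, at 9.38 and 33.1 CPM (200 and 208 UMIs, ratio 3.52, 2.89 to 4.30), where 1.97% of all genes were higher, and without the top cell the ratio was 2.92 (2.37 to 3.60). After thinning 1.16% and 2.46% of these cells had a Ccn2 UMI, below the shares in macrophage-like cells given next, so this share does not stand above that background. The matrix and stiffness list, with 8 of 13 measured genes higher, summed to 550.3 and 1052 CPM in the same cells, and its part in the result was not tested.

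Macrophage-like and NK/T/B cell-like cells, which should lack Ccn2, served as its background. Of these, 7.35% and 6.01% were called doublets, beside 0.0733% of corneal epithelial-like cells, and the part of doublets in the background was not tested. Macrophage-like cells had 133 CPM in control and 132 in NC-Foxc2-/- (ratio 0.992, 0.871 to 1.13), and the NK/T/B cell-like class had 159 and 171. A Ccn2 UMI was present in 9.54% and 11.5% of the macrophage-like cells (median 4269 and 5718 UMIs per cell), and after thinning in 5.26% and 5.19%. These UMIs were not spread evenly, since the 5% of macrophage-like cells with most Ccn2 held 91.5% and 91.0% of them and single cells held up to 57 and 84. Erythrocyte-like cells were far lower, at 2.41 and 4.64 CPM. The thinned shares of fibroblasts, TM-3 (31.9% and 41.0%) and uveal meshwork (68.1% and 70.1%) stood above those of macrophage-like cells, while those of keratocyte-like cells (4.43% and 7.28%) were near them, and the keratocyte-like level of 58.0 and 112 CPM was below the macrophage-like level in both libraries.

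**Figure D3:**
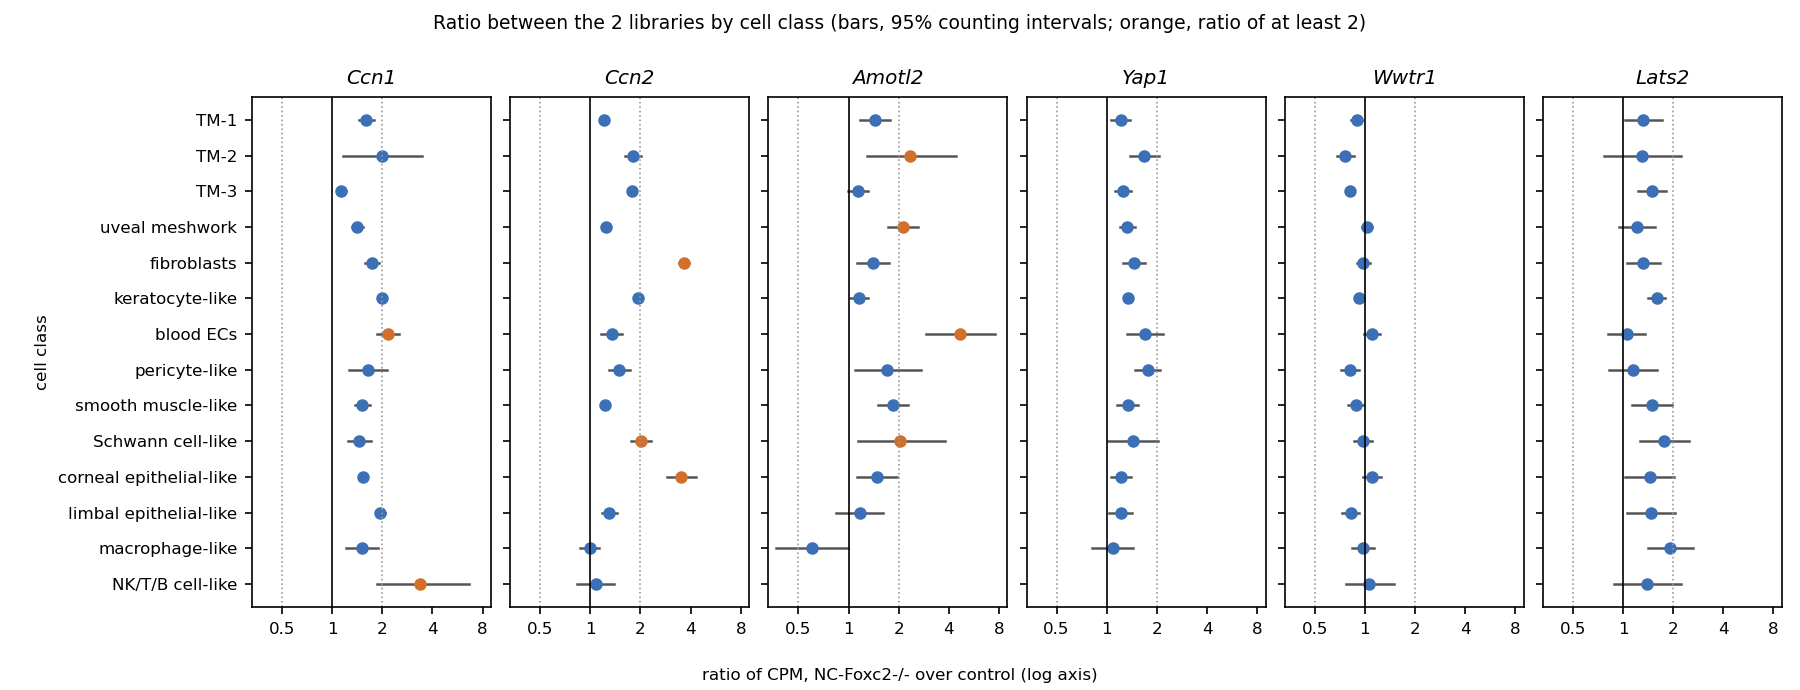
Ratio of CPM in NC-Foxc2-/- over control (log axis) for 6 genes across the 14 classes, with exact 95% counting intervals and orange points where the ratio is at least 2. Ccn1 lies above 1 throughout, and Wwtr1 lies between 0.761 and 1.11.

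Ccn1, also called CYR61, had a ratio above 1 in all 14 classes, each with an interval above 1, and its median ratio was 1.62. These classes include the macrophage-like and NK/T/B cell-like cells that served as background for Ccn2. Ccn1 was highest in corneal epithelial-like cells, at 559 CPM in control and 855 in NC-Foxc2-/- cells (ratio 1.53, 1.48 to 1.58). Blood endothelial cells had 177 and 381 CPM, a ratio of 2.15 (1.85 to 2.52). There 2 members passed the rule, Ccn1 and Amotl2, where 3.33% of all genes were higher. Without the blood endothelial subcluster BEC-2, which held 12 control and 59 NC-Foxc2-/- cells and in which Ccn1 was at 691 CPM over both libraries, the ratio of Ccn1 was 1.71 (1.42 to 2.06). Other subclusters were unequal too, as BEC-5 with 43 and 14 cells (88.4 CPM of Ccn1) and BEC-1 with 8 and 25 (4.90 CPM). Median depth of blood endothelial cells was 8749 and 5466.5 UMIs. Their part in the result was not tested.

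Keratocyte-like cells had 122 CPM of Ccn1 in control and 244 in NC-Foxc2-/- cells, a ratio of 1.996 (1.92 to 2.08) that lies just under the rule of size. Limbal epithelial-like cells, of which 30.6% were called doublets, were close to it too at 259 and 504 CPM (ratio 1.94, 1.82 to 2.07), and 0 members were higher by the rule there, where 1.17% of all genes were. TM-2 had only 21 and 50 UMIs of Ccn1, with a ratio of 1.98 (1.17 to 3.47). The gap was narrower in the meshwork classes with higher levels, at 185 and 298 CPM in TM-1 (ratio 1.61), 249.7 and 353 CPM in uveal meshwork (1.41) and 283 and 320.2 CPM in TM-3 (1.13).

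In NK/T/B cell-like cells Ccn1 was the 1 member past the rule, where 4.29% of all genes were higher, at 21.1 CPM in control (13 UMIs) and 71.4 in NC-Foxc2-/- cells (71 UMIs), a ratio of 3.39 (1.86 to 6.67). Only 9 control and 12 NC-Foxc2-/- cells carried those UMIs, and the ratio was 2.37 without the cell with most of them and 1.38 without cells called doublets. Macrophage-like cells were at 39.9 and 60.2 CPM, with 0 members higher by the rule, where 2.14% of all genes were.

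Few cells carried any Ankrd1. It was highest in corneal endothelial-like cells, where 78 control UMIs (23.3 CPM) came from 13 of 168 cells and 1 cell carried 48 of them. It was 1 of 9 measured members to pass the rule in keratocyte-like cells, and the only such member, at 0.667 and 2.63 CPM (18 and 101 UMIs), a ratio of 3.94 (2.37 to 6.92), where 2.31% of all genes were higher. These UMIs lay in 6 of 1646 control and 19 of 2542 NC-Foxc2-/- cells, and without the cell with the most, 39 UMIs, the ratio was 2.42 (1.41 to 4.35). TM-3 had 14 and 29 UMIs, too few for a ratio, and TM-1, TM-2, uveal meshwork and blood endothelial cells had none, which in TM-2 of control allows up to 3 UMIs in 968292.

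Of the angiomotins, Amotl2 had its highest ratio among the 14 classes in blood endothelial cells, and its paralog Amot had a ratio above 1 in 6 of the 7 classes with at least 50 UMIs and below 1 in TM-3. Blood endothelial cells had 16.7 CPM of Amotl2 in control (23 UMIs) and 77.4 in NC-Foxc2-/- cells (109 UMIs), a ratio of 4.64 (2.94 to 7.62), and after thinning 3.25% and 7.96% of the cells had a UMI, beside 0.752% and 0.741% of macrophage-like cells. The level in macrophage-like cells was 12.6 and 7.65 CPM. With cells thinned the ratio was 2.45. The ratio was 3.53 (2.04 to 6.40) without BEC-2, in which Amotl2 was at 51.3 CPM in control and 172 in NC-Foxc2-/- cells. The class endothelial cells, here and below, also holds the SC and lymphatic cells. It further holds a subcluster of 0 control and 22 NC-Foxc2-/- cells, in which Amotl2 was at 84.3 CPM (11 UMIs). In this class Amotl2 was at 14.9 and 71.9 CPM, a ratio of 4.84, or 3.72 (2.37 to 6.00) without BEC-2. It was the 1 member past the rule there, where 3.09% of all genes were higher.

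In uveal meshwork Amotl2 was at 28.7 and 60.5 CPM, a ratio of 2.11 (1.72 to 2.60), the 1 member past the rule, where 2.06% of all genes were higher. It did not pass with cells thinned (1.42), with each cell weighted equally (1.72) or in the rebuilt clusters (1.99). TM-2 had 16.5 and 38.7 CPM (16 and 45 UMIs), a ratio of 2.34 (1.30 to 4.44), again the 1 member past the rule, where 2.77% of all genes were higher, and did not pass in the rebuilt clusters (1.61). Schwann cell-like cells had 13.5 and 27.6 CPM (17 and 44 UMIs), a ratio of 2.04 (1.14 to 3.81), which was 7.12 with cells thinned and 1.91 without the cell with most Amotl2. TM-3, one of the classes with the most Amotl2 together with smooth muscle-like cells and TM-1, was at 56.9 and 64.6 CPM with an interval of 0.987 to 1.30. Macrophage-like cells were below 1, from 39 and 31 UMIs.

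Amot was highest in TM-3, with 141 CPM in control and 82.0 in NC-Foxc2-/- cells, a ratio of 0.581 (0.523 to 0.644). In the other classes with at least 50 UMIs it was not lower, with 61.5 and 70.9 CPM in uveal meshwork (ratio 1.15, 0.976 to 1.36) and 25.5 and 49.8 CPM in smooth muscle-like cells (ratio 1.96, 1.46 to 2.62), where 0 members were higher by the rule and 1.61% of all genes were. TM-3 held cells of different rebuilt clusters in the libraries. In cluster 5 (673 and 585 cells) Amot was at 165 and 126 CPM, a ratio of 0.761 (0.683 to 0.847), and in cluster 14 (118 and 413 cells) at 1.69 and 12.7 CPM (1 and 26 UMIs). Corneal endothelial markers, which were summed over 6 genes, went the same way as Amot in TM-3, from 1831 to 852 CPM, and Amot was at 47.6 CPM in corneal endothelial-like cells; their part in the result was not tested. Of the summed UMIs of Amot and Amotl2, Amot made up 71.3% in control and 56.0% in NC-Foxc2-/- TM-3, and 68.2% and 54.0% in uveal meshwork.

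**Figure D4:**
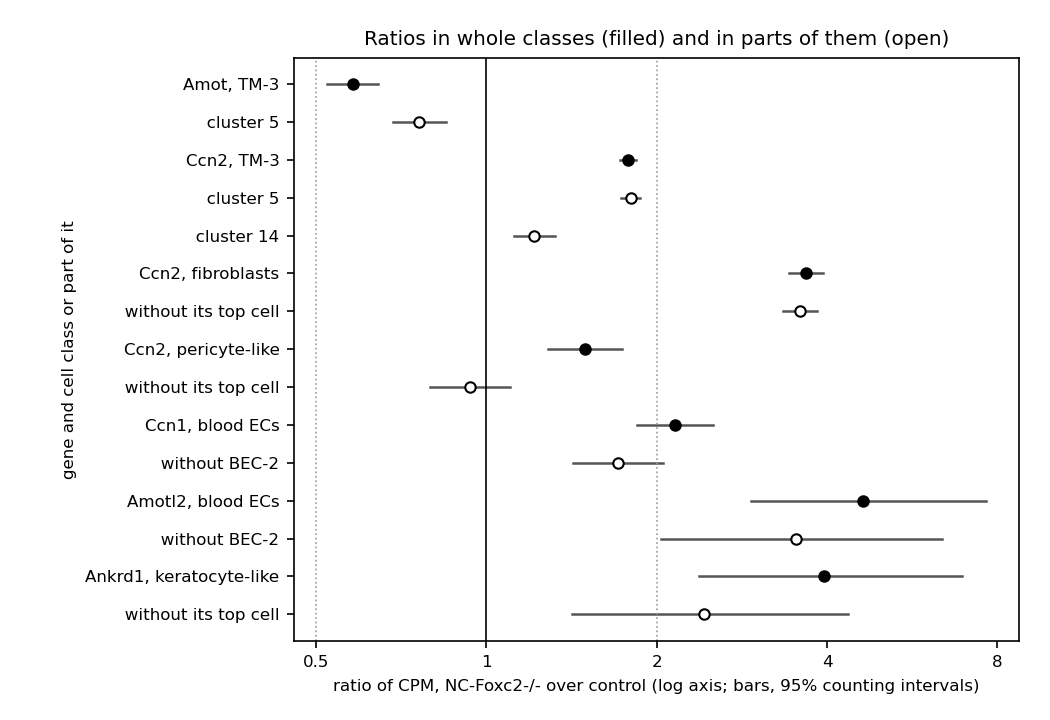
Ratio of CPM in NC-Foxc2-/- over control (log axis) for members in whole classes (filled) and in parts of them (open), with exact 95% counting intervals. Amotl2 in blood endothelial cells was 4.64 in all cells and 3.53 without BEC-2, and Amot in TM-3 was 0.581 in all cells and 0.761 in rebuilt cluster 5.

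Lats2, the kinase at the end of the cascade, had a ratio above 1 in all 14 classes, from 1.05 in blood endothelial cells, its highest class (92.2 and 96.6 CPM), to 1.92 (1.42 to 2.63) in macrophage-like cells (19.8 and 38.0 CPM). TM-3 had 26.8 and 39.9 CPM (ratio 1.48, 1.22 to 1.80), keratocyte-like cells 14.4 and 23.0 CPM (1.59, 1.41 to 1.80) and Schwann cell-like cells 40.5 and 71.4 CPM (1.76, 1.26 to 2.50). The interval lay above 1 in 9 classes, and uveal meshwork (27.5 and 33.3 CPM), TM-2 and pericyte-like cells were among those whose interval held 1. In pericyte-like cells 0 members were higher by the rule, where 5.94% of all genes were. Ajuba was highest in limbal epithelial-like cells, with 19.9 and 32.1 CPM (ratio 1.61, 1.26 to 2.05). Smooth muscle-like cells (9.97 and 16.8 CPM, ratio 1.68, 1.02 to 2.77) and corneal epithelial-like cells (11.1 and 14.3 CPM, ratio 1.29) came next, with overlapping intervals over both libraries. In TM-3 (4.95 and 3.62 CPM) and uveal meshwork (6.24 and 5.21 CPM) its intervals held 1.

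The other genes of the pathway were taken from lists of its kinases, inputs, partners and targets. Beside their counts stand the shares of all genes that were higher, as given above for each class, and lower, which were 1.7% for TM-1, 1.88% for TM-2, 2.29% for TM-3, 1.49% in uveal meshwork, 1.31% in keratocyte-like and 4.03% in endothelial cells. The Hippo kinase module had 0 of 11 measured genes higher in TM-3, uveal meshwork, keratocyte-like and endothelial cells and 0 of 7 in TM-2, and in TM-1 1 of 11 was lower, the kinase gene Stk4 (ratio 0.454, 40 and 14 UMIs). Its median log2 ratio was 0.22 for TM-1, where that of all genes was -0.02, and 0.36 for TM-2, where it was -0.01. For TM-3 and uveal meshwork it was 0.27 and 0.34, beside 0.06 over all genes in each. In keratocyte-like cells it was 0.23 and in endothelial cells 0.01, beside 0.01 and -0.08 over all genes. Among upstream inputs and junction regulators, 1 of 15 was higher in TM-1 (the phosphatase gene Ptpn14, ratio 2.64) and 1 of 11 in TM-2 (the atypical cadherin gene Fat1, 2.18). In TM-3 1 of 16 was lower (Wwc1, which encodes KIBRA, 0.388). In keratocyte-like cells 1 of 16 was higher (Fat4, 2.24), and in endothelial cells Fat4 was higher (2.21) and its ligand gene Dchs1 lower (0.472) among 13. None of 16 passed in uveal meshwork. Of the other TEAD and VGLL factors only Tead3 passed, in TM-1 (2.65).

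In the signature of other YAP and TAZ targets the median log2 ratio lay above that of all genes in 13 of 14 classes. The Hippo kinase module and the upstream inputs each gave the same count of 13. The summed level of the signature was higher in NC-Foxc2-/- cells in 9 classes, as in fibroblasts (1509 and 1772 CPM), and lower in 5. It was lower in TM-1 (1986 and 1717 CPM), TM-3 (2611 and 2331) and uveal meshwork (1882 and 1672). The signature was also lower in blood endothelial cells (2742 and 1891 CPM) and NK/T/B cell-like cells (549 and 538 CPM). In TM-1 2 of 15 measured genes were higher, Ptpn14 and Igfbp3 (2.30), where 2.24% of all genes were, in TM-2 1 of 12, Igfbp3 (5.04), where 2.77% were, in uveal meshwork 0 of 16, in keratocyte-like cells 1 of 14, Crim1 (2.02), and in endothelial cells 2 of 12, Myof (2.32) and Nt5e (2.31). In TM-3 0 of 16 were higher and 1, Fjx1, was lower (0.417). The median was below that of all genes in TM-3, at 0.03 beside 0.06. In uveal meshwork it was 0.26 beside 0.06, in TM-2 0.22 beside -0.01 and in fibroblasts 0.29 beside -0.02.

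The targets of SRF, a factor of the actin cytoskeleton, summed to a lower level in NC-Foxc2-/- cells in 13 of 14 classes, all but pericyte-like cells. Smooth muscle-like cells, 547 in control and 273 in NC-Foxc2-/-, had 58158 and 40896 CPM of them. Macrophage-like cells had 4 of 17 measured genes lower and NK/T/B cell-like cells 6 of 14, where 3.4% and 3.79% of all genes were. Free RNA was not subtracted, and its part in these sums was not tested. The sum was 7963 and 5896 CPM for TM-1, 8319.5 and 5742 for fibroblasts and 15073 and 10047 for blood endothelial cells, with a median log2 ratio of -0.28, -0.01 and -0.58 beside -0.02, -0.02 and -0.07 over all genes. The median was above that of all genes in 4 of 14 classes, among them TM-3 (0.22 beside 0.06). The list had Srf itself higher in TM-1 (2.16) and TM-3 (2.46), with Myl9 lower in TM-1 (0.475), Tagln higher in TM-2 (3.20), Cnn1 higher in TM-3 (2.13) and Cnn2 lower in endothelial cells (0.440). The list of immediate early and dissociation response genes held 20. Of these, the heat shock genes Hspa1a and Hspa1b were higher in TM-2 (3.89 and 2.26) and TM-3 (4.18 and 4.41). Hspa1b was also higher in keratocyte-like cells (2.49), and in TM-1 and uveal meshwork 0 of 20 were higher. Zfp36 was higher in keratocyte-like cells (2.47) and endothelial cells (2.51), and Atf3 was lower in TM-3 (0.461). The list summed to a lower level in NC-Foxc2-/- cells in 11 of 14 classes and to a higher level in 3. It was lower in TM-3, at 16719 CPM in control and 14523 in NC-Foxc2-/- cells. Among the 3 classes with a higher sum were fibroblasts (12864 and 15459 CPM) and blood endothelial cells (17308 and 25024 CPM). Its part in the values of Ccn1, Ccn2 and Amotl2 was not tested. Of the matrix genes, Tnc was higher in TM-3 (2.21) and uveal meshwork (2.09), Eln (2.89) in keratocyte-like cells, and Col3a1 (2.03) and Lox (2.49) in endothelial cells. The matrix and stiffness list summed to a higher level in NC-Foxc2-/- cells in 7 of 14 classes and to a lower level in 7. It was higher in TM-3 (25759 and 32071 CPM). It was lower in fibroblasts (75950 and 63444 CPM), TM-2 (9837 and 7783) and blood endothelial cells (5087 and 4484).

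Markers of other cell types were present in the classes where Ccn2 and Amotl2 differed most. In fibroblasts the fibroblast markers, all 5 detected, summed to 10605 and 6844 CPM in the control and NC-Foxc2-/- libraries, the 9 meshwork markers to 846 and 742 CPM, and the macrophage markers, 4 of 13 of which reached 50 UMIs, to 55.1 and 113 CPM. The 7 erythrocyte markers summed to 4747 and 4248 CPM there, the limbal epithelial markers to 2572 and 1994 and the keratocyte markers to 1386 and 1858. In blood endothelial cells all 9 endothelial markers were detected and summed to 13626 and 9889 CPM, and the keratocyte markers, 3 of 5 at 50 UMIs, to 406 and 429 CPM. The erythrocyte markers there summed to 20907 and 13926 CPM and the limbal epithelial markers to 3123 and 3586. The corneal epithelial markers in the NK/T/B cell-like class summed to 835 and 121 CPM. Their part in the results was not tested.

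Across 31 profiles of a class in a library, without erythrocyte-like cells, members formed loose groups. Log2 levels of Ccn2 correlated with those of Amot (Pearson r = 0.79) and Amotl2 (0.78), and those of Wwtr1 with those of Tead1 (0.80), while Ccn1 and Ccn2 had an r of 0.02. With erythrocyte-like cells, whose levels were near 0 for every member, the 33 profiles gave 0.83, 0.86, 0.93 and 0.43. The profiles share libraries, depth and free RNA, and these values are descriptions.

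The genes with profiles most like those of the members, among 12333 genes and over the 33 profiles, were as follows. For Ccn2 they were Fzd1, Slc5a3, Pwwp3b, Lrp6 and Simc1, with r from 0.915 to 0.932. For Ccn1 they were Ttc37, Abcd3, Prkci, Nudcd1 and Mtap (0.851 to 0.890). For Yap1 they were Nr1d2, Nedd4, Stau1, Luzp1 and Bag3 (0.957 to 0.965), and for Wwtr1 Ndst1, Pdzd8, Ubqln2, Slc39a10 and Wwc2 (0.957 for the first). Ankrd1 had Galnt14, Btbd17, Vwde, Col11a2 and Slc35f3 (0.749 to 0.791). Without erythrocyte-like cells the first gene was Pwwp3b for Ccn2 (0.913), Ttc37 for Ccn1 (0.785), Nr1d2 for Yap1 (0.894), Tm4sf1 for Wwtr1 (0.904) and Galnt14 for Ankrd1 (0.787).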

How the data were processed

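Anterior segment cells were profiled with 10x Genomics 3' chemistry, and per the labels the authors aligned reads to mm10 with Cell Ranger 4.0.0 (annotation release not given in the sources used here). The deposited matrices hold raw UMI counts per gene and cell barcode, 11285 barcodes in control and 11656 in NC-Foxc2-/-. Cells with over 8% mitochondrial UMIs were removed here, as in the study. Cells of the study's clusters were found by matching its published normalized values to the counts within 0.55 of the last printed digit, and all others were clustered with scanpy 1.11.5 (15 principal components, 25 neighbors, resolution 0.8) and named from marker lists. Cells called doublets (429 and 507, or 3.98% and 4.66%) were kept. UMIs were summed per class and library into CPM, and ratios of CPM were given a 95% interval by the exact conditional (Clopper-Pearson) method. Intervals cover counting error only, and 1 library per condition allows no test. A gene counted as higher or lower with a ratio of at least 2 or at most 0.5 and at least 50 UMIs over both libraries, in classes with at least 50 cells in each. Free RNA was not subtracted. Of the gene lists, those past this rule were named in the meshwork classes and in keratocyte-like and endothelial cells, at most the 2 highest and 2 lowest per list and class, and the 5 genes most like Ccn1, Ccn2, Ankrd1, Yap1 and Wwtr1 by Pearson r of log2(CPM + 1), among genes with at least 10 CPM in a profile. One gene that this rule names is not reported here. The members and lists were chosen with earlier results of these data known. Promoter and gene positions came from RefSeq (GRCm38.p6) and GENCODE vM21, both of the mm10 assembly. Alternatives were doublet removal, thinning, other scaling, other cluster resolutions and matching tolerances, and other thresholds. Sums and intervals were computed with scipy 1.17.1 and pandas 2.3.3 under Python 3.11.15.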

Additional observations from a re-analysis of the deposited data

Results flagged for a closer look

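Amotl2 had a ratio of 0.605 (0.365 to 0.995) in macrophage-like cells, from 39 and 31 UMIs, while its counting interval lay above 1 in 10 other classes. Amot had a ratio of 0.581 in TM-3 and an interval above 1 in 2 other classes, smooth muscle-like and keratocyte-like cells. Tead1 had a ratio of 0.751 in TM-1 and an interval above 1 in 5 other classes. Each was picked out because 1 class went the opposite way from others, and with 1 library per condition these differences between classes were not tested.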

How the results depend on the processing

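No paired analysis was possible because each condition had 1 library. Ratios were recomputed for 14 member and class pairs. These were the pairs past the rule of size and Amot in TM-3, Ccn2 in TM-3 and Ccn1 in keratocyte-like cells. Of 118 such ratios, all 118 stayed on their side of 1, and 103 lay within the interval of the reported ratio. Most pairs were picked for a ratio of at least 2, so staying above 1 says little. None was of Yap1, Wwtr1, Tead1, Lats2 or Ajuba. The 15 others included Ccn1 in NK/T/B cell-like cells (1.38 without doublets, 1.49 thinned), Ccn1 in blood endothelial cells (3.40 thinned, 2.56 without doublets, 1.71 without BEC-2), Amotl2 thinned in Schwann cell-like (7.12), blood endothelial (2.45) and uveal meshwork (1.42) cells, and Ccn2 in fibroblasts (3.25 thinned). Of 166 counts of members past the rule of size, 46 moved. Without doublets they were 0 in NK/T/B cell-like, 1 in Schwann cell-like and 3 in endothelial cells. With ratios divided by the class median they were 1 in Schwann cell-like, limbal epithelial-like and macrophage-like cells. Thinned to 1000 UMIs they were 0 in NK/T/B cell-like cells and uveal meshwork, 1 in Schwann cell-like cells, TM-3, blood endothelial and pericyte-like cells, and 2 in keratocyte-like and smooth muscle-like cells. With each cell weighted equally they were 1 in Schwann cell-like cells, 2 in fibroblasts and macrophage-like cells and 0 in uveal meshwork. Without mitochondrial, ribosomal protein and haemoglobin genes they were 2 in keratocyte-like and 1 in limbal epithelial-like cells. At resolution 0.4 they were 1 in Schwann cell-like and 3 in keratocyte-like cells, and at 1.2 they were 1 in Schwann cell-like cells, with no cluster named keratocyte-like. Matching within 0.5 gave 2 in TM-2, and rebuilt clusters gave 0 in TM-2 and uveal meshwork and 2 in endothelial cells. With no minimum of UMIs they were 2 in NK/T/B cell-like, endothelial and macrophage-like cells, 4 in erythrocyte-like cells, 3 in fibroblasts and pericyte-like cells and 1 in smooth muscle-like cells. At a ratio of 1.5 they were 1 in TM-1, 2 in TM-3 and limbal epithelial-like cells, 3 in corneal epithelial-like, macrophage-like and pericyte-like cells and fibroblasts, 4 in TM-2, endothelial and smooth muscle-like cells and 5 in keratocyte-like cells. Without BEC-2, an alternative chosen after seeing the data, there was 1 in blood endothelial cells. Leaving out the cell with the most UMIs of a gene, also chosen after seeing the data, took Ccn2 in pericyte-like cells from 1.49 to 0.936 (0.794 to 1.10), 1 cell having carried 221 UMIs. The causes were not tested. The mitochondrial filter was not varied, because removed cells had no class. At these depths members under 50 UMIs in a class allow no ratio.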

Other observations

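A rebuilt cluster led by Hspa1a, Tnc and Mmp3 (cluster 8, 313 control and 522 NC-Foxc2-/- cells, 37.8% of them called doublets) could not be named from markers. Its Ccn1 was at 231 CPM in control and 447 in NC-Foxc2-/- cells, and its Ccn2 at 238 and 584 CPM.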
